A study of Homo sapiens with 12 samples.

Results

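Interferon-stimulated genes are the genes that cells switch on after interferon, most of them antiviral. A module of 43 of them was followed on 12 Illumina expression arrays of HDLM-2, a human cell line established from Hodgkin lymphoma. The members were chosen by name, with earlier results of these data known, and every probe whose symbol in the array's annotation was a member was taken. Shares of members set against all genes below are therefore a description. That gave 63 probes of 41 genes among 48803 probes in all, and STAT2 and USP18 had no probe of that name. Each gene was followed through its brightest probe, and all 41 stood among the 13650 named genes tested. Of these, 40 were above the background threshold on all 12 arrays, and TRIM22 was above it on 5.

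Cells of all 4 groups grew in culture medium for 24 h with or without drug, with 3 arrays a group, lettered A, B and C. One group received 10 µM perifosine plus 5 µM sorafenib, one 5 µM sorafenib, one 10 µM perifosine, and one was the control. Perifosine is an alkylphospholipid that inhibits AKT, and sorafenib is a kinase inhibitor that acts on RAF and on receptor tyrosine kinases. The labels do not say what solvent, if any, the control received, nor whether arrays of one group stand for separate cultures. The p-values therefore reflect how far these arrays differ, and that may be technical variation. HDLM-2 is 1 line grown without other cells.

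Type I interferons bind the receptor made of IFNAR1 and IFNAR2, whose kinases are JAK1 and TYK2. The signal reaches a complex with IRF9 and STAT2 that binds the interferon-stimulated response element in the promoters of target genes. Interferon gamma acts through JAK1 and JAK2, and its targets carry the gamma-activated site. Cells also raise many of the same genes when sensors such as RIGI and IFIH1 meet viral RNA. Hodgkin cells are known for constant JAK-STAT signalling.

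The promoters below are shown because they hold, or lack, the core of the response element in members whose signal differed with sorafenib and in members whose signal did not pass the test. Each is the 160 bases before the start site of the gene, 5′ to 3′ on the gene's own strand, from RefSeq on GRCh38.p14. Capitals mark each match to the core of the element, 2 copies of GAAA with any 2 bases between them, searched on both strands, so that on the opposite strand the copies read TTTC. The first 4 belong to members that rose with sorafenib and have at least 1 match.
IFIT3: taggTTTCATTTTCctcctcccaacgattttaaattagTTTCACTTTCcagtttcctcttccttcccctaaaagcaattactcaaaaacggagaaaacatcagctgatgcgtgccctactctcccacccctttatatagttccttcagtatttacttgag
ISG20: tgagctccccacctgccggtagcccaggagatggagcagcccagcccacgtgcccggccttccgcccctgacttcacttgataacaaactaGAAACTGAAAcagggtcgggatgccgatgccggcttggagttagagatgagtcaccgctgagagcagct
OAS3: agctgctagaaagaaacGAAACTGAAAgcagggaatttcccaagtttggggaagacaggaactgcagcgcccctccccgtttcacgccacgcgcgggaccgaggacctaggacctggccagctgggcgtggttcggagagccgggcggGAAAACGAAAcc
IFITM3: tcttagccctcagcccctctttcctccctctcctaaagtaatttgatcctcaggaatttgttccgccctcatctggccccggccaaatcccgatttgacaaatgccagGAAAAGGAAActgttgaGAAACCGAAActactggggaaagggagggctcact
RIGI rose with sorafenib and has no match in its window.
RIGI: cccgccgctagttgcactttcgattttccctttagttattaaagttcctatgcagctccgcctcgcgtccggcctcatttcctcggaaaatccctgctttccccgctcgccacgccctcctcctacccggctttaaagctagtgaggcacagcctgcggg
SAMD9 fell with sorafenib.
SAMD9: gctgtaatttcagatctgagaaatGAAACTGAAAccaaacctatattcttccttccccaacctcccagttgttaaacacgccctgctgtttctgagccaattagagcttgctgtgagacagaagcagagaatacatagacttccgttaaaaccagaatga
ISG15, IFIT1 and BST2 have matches, and none of them passed the test in any comparison.
ISG15: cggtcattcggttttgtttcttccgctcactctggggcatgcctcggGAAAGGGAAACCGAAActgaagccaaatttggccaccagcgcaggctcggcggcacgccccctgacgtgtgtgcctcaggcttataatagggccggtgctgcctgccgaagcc
IFIT1: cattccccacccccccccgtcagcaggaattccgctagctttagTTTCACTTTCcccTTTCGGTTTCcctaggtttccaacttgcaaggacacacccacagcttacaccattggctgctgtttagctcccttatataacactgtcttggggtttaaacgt
BST2: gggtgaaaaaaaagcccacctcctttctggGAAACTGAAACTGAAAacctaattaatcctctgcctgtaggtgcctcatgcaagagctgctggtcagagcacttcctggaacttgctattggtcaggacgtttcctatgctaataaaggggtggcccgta

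The plus-strand stretches are IFIT3 at chr10:89327837-89327996, ISG20 at chr15:88638856-88639015, OAS3 at chr12:112938314-112938473, ISG15 at chr1:1013337-1013496 and IFIT1 at chr10:89392463-89392622. The minus-strand stretches are IFITM3 at chr11:320861-321020, RIGI at chr9:32526197-32526356, SAMD9 at chr7:93117980-93118139 and BST2 at chr19:17405631-17405790. In ISG15 and in BST2 a pair of matches overlaps, so that one run of capitals holds both. A window reaching from 250 bases before to 50 bases after the start site was at hand for 34 of the 43 members. The GAAA pair stood in the windows of 23 of these 34 (67.6%), against 1195 of all 27305 genes with a window (4.38%). Among members it was found in 4 of the 6 that rose with sorafenib and had a window (66.7%), against 18 of the 26 that did not pass (69.2%). The core of the gamma-activated site, TTCNNNGAA, was searched on both strands as well, and it may overlap the first motif, as it does in BST2. It stood in 10 of the 34 members (29.4%), against 2560 of all genes (9.38%). It was found in 0 of the 6 that rose, against 10 of the 26 that did not pass (38.5%). A match describes letters only and says nothing of what was bound there.

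**Figure D1:**
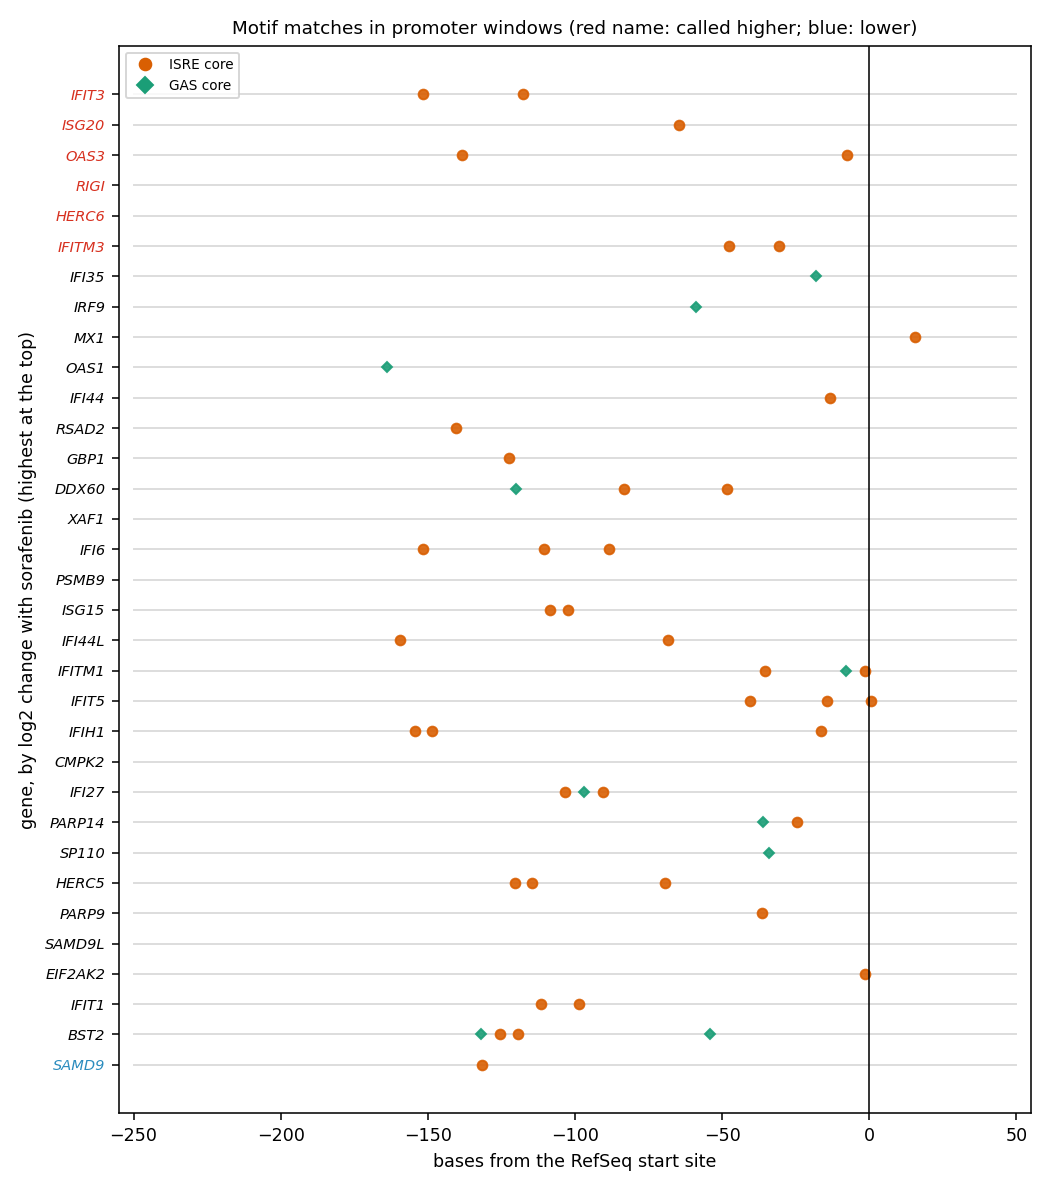
Matches to the GAAA pair (circles, ISRE core) and TTCNNNGAA (diamonds, GAS core) by distance in bases from the RefSeq start site, for the members tested that have a promoter window, the highest log2 change with sorafenib at the top. Where a gene has several windows the one with most matches is drawn. Circles stand in rows from the top to the bottom of the plot. RIGI and HERC6, both called higher, have none, and neither do OAS1, IRF9, CMPK2, SP110, IFI35, XAF1, SAMD9L and PSMB9.

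The cells were checked against markers. All 6 Hodgkin markers tested, among them TNFRSF8 (CD30) and CCL17, were above background on all 12 arrays. Their summed linear signal was 66529 to 69727 with perifosine plus sorafenib, 63425 to 70820 with sorafenib, 44045 to 48956 with perifosine and 50118 to 54184 in the control. The sum was higher with sorafenib, and every perifosine array lay below every control array. Its part in the results below was not tested. Most of it came from CCL17 and FSCN1. Group means of CCL17, FSCN1, TRAF1 and FUT4 were higher with sorafenib, and those of IRF4 were not ordered by sorafenib. TNFRSF8 went the other way, with mean log2 signals of 8.32 with perifosine plus sorafenib, 8.30 with sorafenib, 8.56 with perifosine and 8.61 in the control. Summed signals of B cell markers stayed between 371 and 518 over all 12 arrays, those of T and NK cell markers between 507 and 624, and those of myeloid markers between 1915 and 2555. Among these, the T and NK cell marker NKG7 moved with sorafenib, with a log2 signal of 7.53 to 7.68 with perifosine plus sorafenib, 7.35 to 7.66 with sorafenib, 6.72 to 6.84 with perifosine and 6.99 to 7.29 in the control; its part in the results was not tested. Plasmacytoid dendritic cell markers, the cells best known for making interferon, summed to 6028 to 7475 with perifosine plus sorafenib, 6412 to 7645 with sorafenib, 6200 to 6980 with perifosine and 5726 to 6985 in the control, and the 4 ranges overlapped. Most of this sum came from TCF4, with group means of 12.4 to 12.5 in log2 signal. The means were 9.5 to 9.7 for IL3RA, 7.0 to 7.3 for CLEC4C and 6.4 to 6.5 for LILRA4. LILRA4 was above background on 1 of 3 arrays with perifosine plus sorafenib, 1 of 3 with sorafenib, 0 of 3 with perifosine and 1 of 3 in the control. The sum therefore does not show that such cells were present. Log2 signals of all genes correlated at 0.988 to 0.994 within groups. Across groups, the deviations of perifosine B and sorafenib C from their group means correlated at 0.39, the highest of any such pair with different letters. Because whole cultures were measured, less RNA in every cell and fewer cells with the RNA cannot be told apart.

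Sorafenib was first read as the average of its change without and with perifosine, 6 arrays with sorafenib against 6 without. In this comparison IFIT3, MX2, ISG20, OAS3, RIGI, HERC6 and IFITM3 rose and SAMD9 fell. A gene was called at an adjusted p under 0.05 in limma, with the Benjamini-Hochberg adjustment over 13650 genes. This made 8 of 41 members (19.5%), against 495 of all genes tested (3.63%). Of all genes, 338 rose (2.48%) and 157 fell (1.15%). The changes were modest, the largest being 0.68 on the log2 scale, or 1.60-fold, for IFIT3. The other 33 members did not pass, and 29 of the 41 had a change above 0 (70.7%), against 49.1% of all genes. The median change was 0.12 over the members and -0.0032 over all genes. On 6 members every array with sorafenib lay above every array without (14.6%), against 2.57% of all genes, and on SAMD9 every one lay below, against 1.38% of all genes. Nearly all members were above background on all 12 arrays, while the genes tested include dimmer ones. With only probes above background on all 12 arrays, 10 members were called (25%), against 723 of all genes (7.08%).

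**Figure D2:**
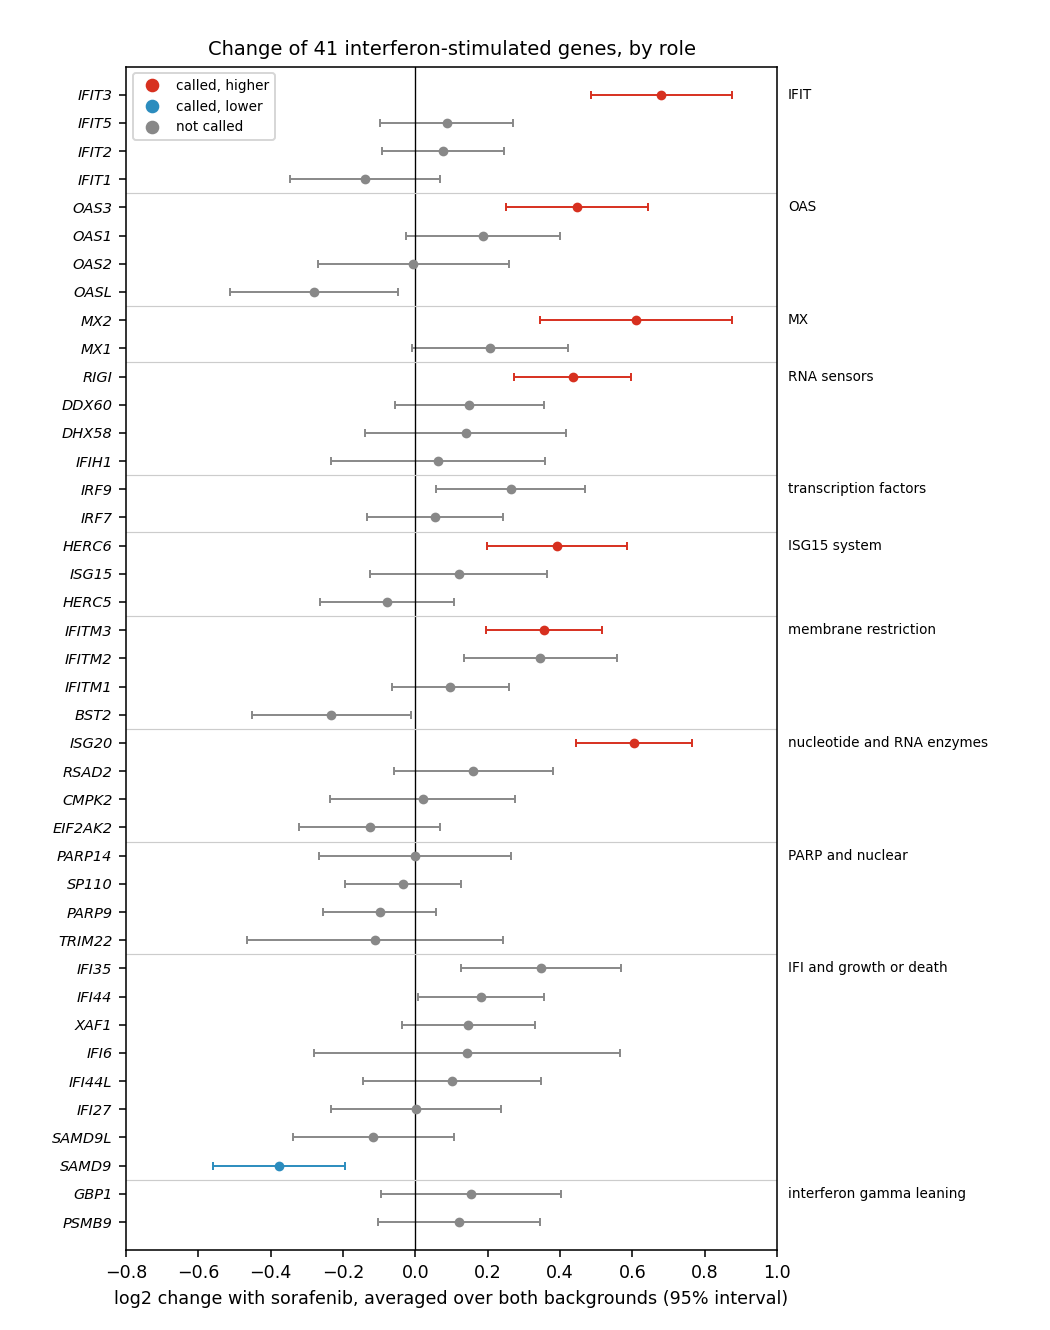
Log2 change with sorafenib, averaged over cells without and with perifosine, of the 41 members tested, grouped by role, with 95% intervals. Red points are the 7 members called higher, the blue point is SAMD9, and grey points did not pass at an adjusted p of 0.05. In most role groups 1 member is called and the others lie closer to 0.

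Among the sensors of viral RNA, RIGI, a helicase that detects RNA with a triphosphate end, rose. Its log2 signal was 9.83, 9.74 and 9.78 with perifosine plus sorafenib, 9.85, 9.77 and 9.75 with sorafenib, 9.52, 9.40 and 9.24 with perifosine, and 9.43, 9.24 and 9.27 in the control. All 6 arrays with sorafenib lay above all 6 without. RIGI changed by 0.44 ± 0.07 on average (SE; limma adjusted p = 0.0068). IFIH1, which detects long double-stranded RNA, had a change of 0.06 ± 0.14, DHX58, a regulator of both, one of 0.14 ± 0.13, and DDX60, a related helicase, one of 0.15 ± 0.10, and none of these passed. On IFIH1 a single array stood high in each of 2 groups, 12.37 on sorafenib C and 12.26 on perifosine B, with the other 10 arrays between 11.61 and 11.99.

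Neither transcription factor measured in the module passed. IRF9, the DNA-binding part of the interferon response complex, had a change of 0.26 ± 0.10 (limma adjusted p = 0.16, 95% interval 0.06 to 0.47). IRF7, which amplifies interferon genes, had a change of 0.05 ± 0.09. Its other 2 passing probes gave -0.13 and 0.32, so the probes of IRF7 disagreed in sign.

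The IFIT family binds foreign RNA and blocks its translation, and of its 4 members IFIT3 rose. The log2 signal of IFIT3, which holds IFIT1 on its target, was 9.27, 9.32 and 9.23 with perifosine plus sorafenib, 9.06, 9.44 and 9.24 with sorafenib, 8.31, 8.44 and 8.66 with perifosine, and 8.84, 8.60 and 8.64 in the control. The lowest array with sorafenib lay above the highest without. IFIT3 changed by 0.68 ± 0.09 on average (SE; limma adjusted p = 0.0012). Its other 2 passing probes gave 0.55 and 0.12, the first of which also passed when every probe was tested alone (limma adjusted p = 0.022) while the second did not (adjusted p = 0.74).

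The other IFIT genes did not pass the test. IFIT1, which recognises viral RNA caps, had a log2 signal of 7.42, 7.05 and 7.36 with perifosine plus sorafenib, 7.05, 7.02 and 7.05 with sorafenib, 7.11, 7.55 and 7.24 with perifosine, and 7.14, 7.39 and 7.35 in the control. The 3 sorafenib arrays were the lowest of the groups by mean, and perifosine plus sorafenib overlapped the control. IFIT2 was 10.04, 10.16 and 10.00 with perifosine plus sorafenib, 9.95, 9.92 and 9.88 with sorafenib, 9.97, 9.86 and 9.83 with perifosine, and 9.99, 10.09 and 9.74 in the control. IFIT5 was 8.69, 8.80 and 8.83 with perifosine plus sorafenib, 8.56, 8.89 and 8.77 with sorafenib, 8.79, 8.78 and 8.52 with perifosine, and 8.60, 8.55 and 8.77 in the control. Arrays with and without sorafenib overlapped in all 3 genes. Their averaged changes were -0.14 ± 0.10 for IFIT1, 0.08 ± 0.08 for IFIT2 and 0.09 ± 0.09 for IFIT5. The upper 95% bounds were 0.07, 0.25 and 0.27, below the lower bound of 0.48 of the brightest IFIT3 probe. The third IFIT3 probe, at 0.12, lay below the upper bounds of IFIT2 and IFIT5. How far IFIT3 stood apart from its relatives thus depends on the probe, and IFIT1 lay near the background threshold.

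The OAS enzymes make oligoadenylates that activate RNase L, and of these genes OAS3 rose. The log2 signal of OAS3 was 11.82, 11.77 and 11.98 with perifosine plus sorafenib, 11.76, 12.11 and 11.79 with sorafenib, 11.66, 11.67 and 11.45 with perifosine, and 11.33, 11.36 and 11.08 in the control. All 6 arrays with sorafenib lay above all 6 without, and the 3 perifosine arrays lay above the 3 control arrays. OAS3 changed by 0.45 ± 0.09 on average (SE; limma adjusted p = 0.017). The second probe of OAS3, above background on 9 arrays, gave 0.16 (adjusted p = 0.78), and the mean of both probes did not pass (change 0.31, adjusted p = 0.25). Without array C of the combination the call of OAS3 also ended (change 0.42, adjusted p = 0.051).

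OAS1 had a log2 signal of 9.84, 9.95 and 9.65 with perifosine plus sorafenib, 9.78, 9.61 and 9.69 with sorafenib, 9.55, 9.54 and 10.00 with perifosine, and 9.47, 9.30 and 9.56 in the control. Perifosine C was the highest of the 12. OAS2 was 11.88, 11.66 and 11.81 with perifosine plus sorafenib, 11.91, 12.02 and 11.42 with sorafenib, 12.01, 11.40 and 11.79 with perifosine, and 11.85, 11.74 and 11.94 in the control. Here sorafenib C and perifosine B were the lowest. OASL, a relative without the enzyme activity that binds RIGI, was 9.45, 9.28 and 9.87 with perifosine plus sorafenib, 9.40, 9.75 and 9.78 with sorafenib, 9.76, 9.96 and 9.78 with perifosine, and 9.84, 9.96 and 9.91 in the control. The 3 sorafenib arrays lay below the 3 control arrays, and perifosine plus sorafenib overlapped the perifosine and the control arrays. Averaged changes were 0.19 ± 0.10 for OAS1, -0.01 ± 0.12 for OAS2 and -0.28 ± 0.11 for OASL, and none passed (limma adjusted p = 0.35, 0.99 and 0.19). Their other passing probes, each tested alone, gave 0.16 and 0.40 for OAS1, 0.25, -0.02 and -0.05 for OAS2, and -0.43 for OASL. None of these probes passed, the lowest limma adjusted p being 0.067 for the OAS1 probe at 0.40. How far OAS3 stood apart from its relatives thus depends on the probe.

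Of the MX GTPases, which trap viral nucleocapsids, MX2 rose. The log2 signal of MX2 was 8.78, 8.49 and 8.49 with perifosine plus sorafenib, 8.59, 8.79 and 8.09 with sorafenib, 8.12, 7.89 and 7.72 with perifosine, and 7.90, 7.82 and 8.14 in the control. Sorafenib C lay within the arrays without sorafenib and the other 5 lay above them. MX2 changed by 0.61 ± 0.12 on average (SE; limma adjusted p = 0.016). MX1 had a change of 0.21 ± 0.10 (adjusted p = 0.30).

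ISG20, an exonuclease that degrades RNA, had the lowest adjusted p of the module. Its log2 signal was 12.14, 12.22 and 12.37 with perifosine plus sorafenib, 12.11, 12.07 and 11.99 with sorafenib, 11.54, 11.38 and 11.56 with perifosine, and 11.53, 11.68 and 11.57 in the control. The lowest array with sorafenib, at 11.99, lay above the highest without, at 11.68. The averaged change was 0.61 ± 0.07 (SE; limma adjusted p = 0.00061). The other enzymes of RNA and nucleotides did not pass, with changes of 0.16 for RSAD2, which makes a chain-terminating nucleotide, 0.02 for CMPK2, a nucleotide kinase beside it, and -0.13 for EIF2AK2, the kinase PKR that stops translation. RSAD2 and CMPK2 lay near the background threshold.

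In the ISG15 system, which attaches the small protein ISG15 to other proteins, HERC6 rose. Its product is the ISG15 ligase in mouse, a task that HERC5 has in human cells. The log2 signal of HERC6 was 10.66, 10.58 and 10.68 with perifosine plus sorafenib, 10.76, 10.96 and 10.77 with sorafenib, 10.41, 10.54 and 10.09 with perifosine, and 10.36, 10.45 and 10.20 in the control. All arrays with sorafenib lay above those without, the closest pair being 10.58 with both drugs and 10.54 with perifosine. HERC6 changed by 0.39 ± 0.09 on average (SE; limma adjusted p = 0.033), and the call ended in 9 of 12 fits with 1 array left out, all but those without control B, perifosine B or sorafenib C (changes 0.33 to 0.41, adjusted p 0.051 to 0.080). ISG15 had a change of 0.12 ± 0.11 and HERC5 one of -0.08 ± 0.09, and neither passed.

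Of the membrane proteins that hold back viruses, IFITM3, which blocks fusion in endosomes, rose. IFITM3 had a log2 signal of 10.02, 9.92 and 9.97 with perifosine plus sorafenib, 10.15, 10.06 and 9.92 with sorafenib, 9.69, 9.72 and 9.75 with perifosine, and 9.61, 9.70 and 9.44 in the control. No array with sorafenib overlapped one without. IFITM3 changed by 0.36 ± 0.07 on average (SE; limma adjusted p = 0.020), and the call ended without control C, perifosine A, sorafenib A, sorafenib B, or array A or C of the combination (changes 0.32 to 0.36, adjusted p 0.050 to 0.059). IFITM2 had a change of 0.35 ± 0.10 (adjusted p = 0.075) and IFITM1 one of 0.10 ± 0.07 (adjusted p = 0.55). The IFITM genes are related in sequence, so a probe of one may also read another and their values are uncertain.

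BST2, or tetherin, which ties budding viruses to the cell, had a log2 signal of 13.36, 12.70 and 13.00 with perifosine plus sorafenib, 13.05, 12.81 and 13.01 with sorafenib, 13.16, 13.15 and 13.21 with perifosine, and 13.26, 13.34 and 13.21 in the control. The 3 sorafenib arrays lay below all 6 without sorafenib, while array A of the combination was the highest of the 12. The averaged change was -0.23 ± 0.10 (SE; limma adjusted p = 0.25).

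SAMD9, a protein that restrains poxviruses and cell growth, was the member that fell. SAMD9 had a log2 signal of 12.24, 12.53 and 12.52 with perifosine plus sorafenib, 12.46, 12.56 and 12.49 with sorafenib, 12.88, 12.99 and 12.74 with perifosine, and 12.94, 12.87 and 12.66 in the control. All 6 arrays with sorafenib lay below all 6 without. The averaged change was -0.38 ± 0.08 (SE; limma adjusted p = 0.030), and the call ended without control A, control B, perifosine A, array A of the combination or any 1 sorafenib array (changes -0.39 to -0.33, adjusted p 0.052 to 0.079). Its neighbour and relative SAMD9L had a change of -0.12 ± 0.10 (adjusted p = 0.62).

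The remaining members did not pass. IFI35, an interferon-induced signalling protein, had a change of 0.35 ± 0.10 (limma adjusted p = 0.088). The other IFI genes and XAF1, a promoter of cell death, lay between 0.00 for IFI27 and 0.18 for IFI44. Of these, IFI27 and IFI44L lay near the background threshold. The 4 nuclear and PARP members, PARP9, PARP14, SP110 and TRIM22, lay between -0.11 and 0.00. TRIM22, a ubiquitin ligase that restricts viruses, had a log2 signal of 6.20, 6.73 and 6.83 with perifosine plus sorafenib, 6.55, 6.10 and 7.07 with sorafenib, 6.68, 7.03 and 6.87 with perifosine, and 6.20, 6.71 and 6.67 in the control. It was above background on 2 of 3 arrays with perifosine plus sorafenib, 1 of 3 with sorafenib, 2 of 3 with perifosine and 0 of 3 in the control, and the groups overlapped. GBP1 and PSMB9, which respond most to interferon gamma, had changes of 0.15 and 0.12.

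**Figure D3:**
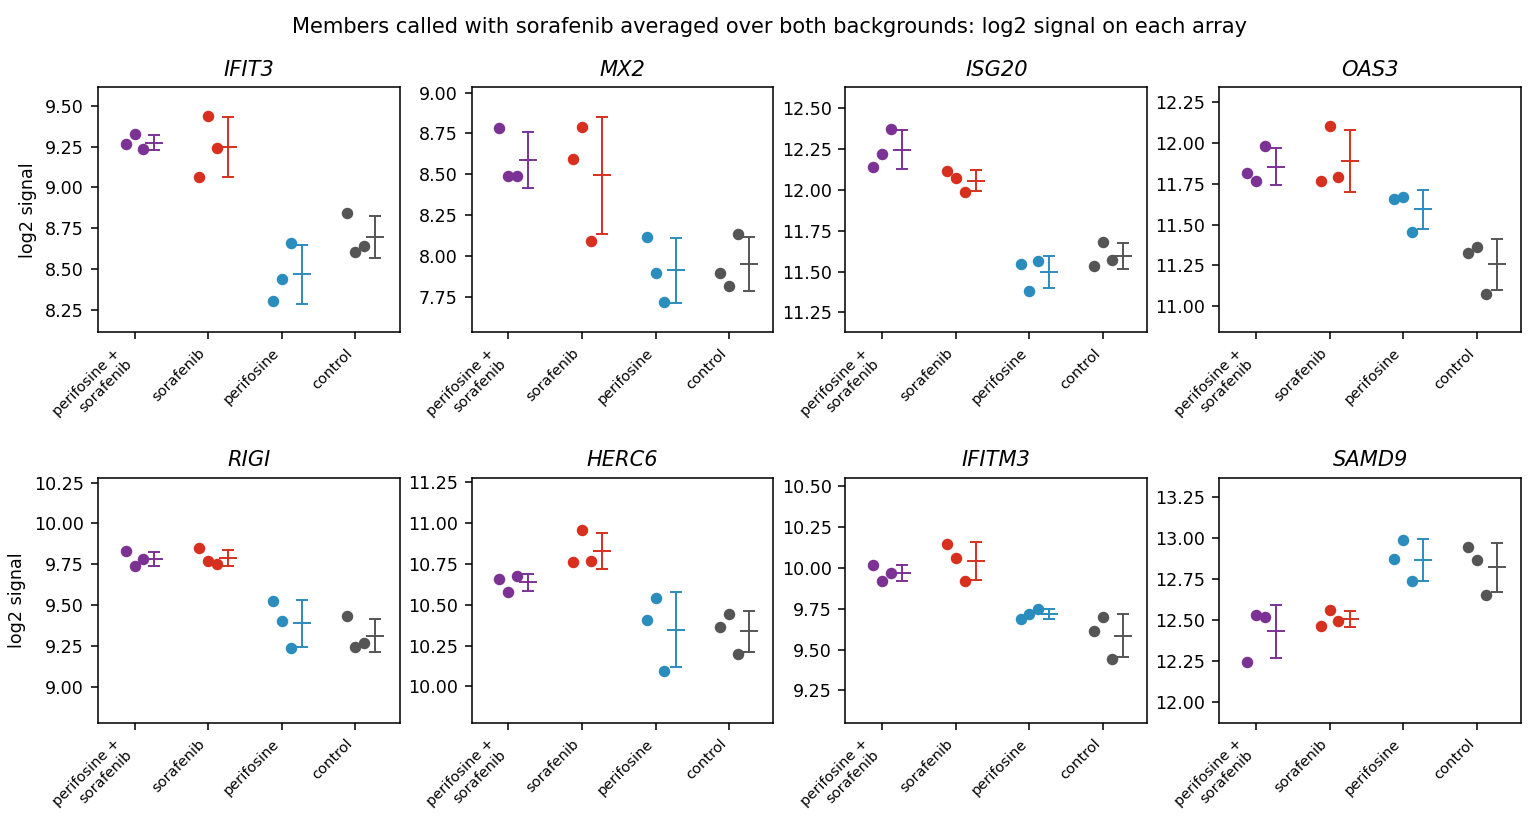
Log2 signal of the 8 members called, on each of the 12 arrays, with the mean and SD of each group (n = 3) beside the points; each panel has its own vertical range. In IFIT3, ISG20, OAS3, RIGI, HERC6 and IFITM3 the points of both groups with sorafenib lie above those of perifosine and control, in SAMD9 below, and in MX2 sorafenib C lies among them.

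The single comparisons held fewer calls. Sorafenib against control called 1 of 41 members, OAS3, against 112 of all genes (0.821%). OAS3 changed by 0.63 ± 0.13 (SE, n = 3 each; limma adjusted p = 0.039), and this call held with 1 array left out only without perifosine B or perifosine C (changes 0.52 to 0.69 and adjusted p 0.052 to 0.16 in the other 10 fits). The second probe of OAS3 gave 0.03 (limma adjusted p = 0.98), and the mean of both probes, with a change of 0.33, did not pass. RIGI, ISG20, IFITM3 and IFIT3 had changes of 0.48, 0.46, 0.46 and 0.55 with adjusted p between 0.059 and 0.067. Of the members 27 had a change above 0, against 49.1% of all genes, the median was 0.10, and 9 lay wholly above the control arrays, against 11.4% of all genes, with 4 wholly below, against 10.3%. The lowest changes were those of BST2 and SAMD9, both -0.32, neither of which passed.

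Perifosine plus sorafenib against control called ISG20, with a change of 0.65 ± 0.10 (SE, n = 3 each; limma adjusted p = 0.013), against 85 of all genes (0.623%). The call of ISG20 ended without control A, control C or array C of the combination (changes 0.59 to 0.64, adjusted p 0.062 to 0.085). MX2 had a change of 0.64, OAS3 of 0.60 and IFIT3 of 0.58 (adjusted p = 0.15, 0.062 and 0.070), SAMD9 of -0.39 and OASL of -0.37 (adjusted p = 0.20 and 0.35). The median over the 41 members was 0.14, and 28 lay above 0, against 50.2% of all genes. This comparison shares its control arrays with the one of sorafenib alone.

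Perifosine plus sorafenib against perifosine called IFIT3 and ISG20, against 94 of all genes (0.689%). IFIT3 changed by 0.81 ± 0.13 and ISG20 by 0.75 ± 0.10 (SE, n = 3 each; limma adjusted p = 0.012 and 0.0065). The call of IFIT3 ended without perifosine A or any 1 array of the combination (changes 0.73 to 0.83, adjusted p 0.052 to 0.064) and with the mean of its probes (change 0.46, adjusted p = 0.096). The other passing probes of IFIT3, each tested alone, gave 0.72 and -0.14 (limma adjusted p = 0.088 and 0.84), so its probes disagreed in sign here. The median of the members was 0.10, with 28 above 0, against 49.8% of all genes.

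Perifosine against control called 0 members and 0 genes in all (0%) in limma. At an unadjusted p under 0.05 it had 1 member, OAS3, against 553 of all genes (4.05%). OAS3 had a change of 0.34 ± 0.13 (95% interval 0.06 to 0.61; limma adjusted p = 0.99), and TRIM22, largely below background, one of 0.33 ± 0.23. The lowest were IFIT3 with -0.23 ± 0.13 and IFI6 with -0.14 ± 0.28. The median of the members was -0.0037, and 20 lay above 0, against 49.7% of all genes. IFI6, an inhibitor of cell death, had a log2 signal of 12.26, 12.09 and 12.80 with perifosine, against 12.49, 12.03 and 13.07 in the control, with the highest array in the control. It was 12.45, 13.19 and 12.51 with perifosine plus sorafenib and 12.16, 12.48 and 12.81 with sorafenib, so arrays of one group differed more than the group means. Its residual SD of 0.41 was the highest of the members, whose median was 0.17 against 0.18 over all genes.

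Perifosine plus sorafenib against sorafenib also called 0 members and 0 genes in limma (0%), with 1 member and 833 genes at an unadjusted p under 0.05 (6.1%). That member was IFI44L, which lay near the background threshold, with a change of -0.36 ± 0.16 (limma adjusted p = 0.81). The interaction asks whether sorafenib did something else in the presence of perifosine. It called 0 members and 0 genes (0%), with 0 members and 1042 genes at an unadjusted p under 0.05 (7.63%). The interaction was 0.29 ± 0.15 for ISG20 (95% interval -0.03 to 0.61), 0.25 ± 0.18 for IFIT3 (-0.14 to 0.64) and -0.37 ± 0.18 for OAS3 (-0.76 to 0.02). Intervals of this width cannot show that the effects were alike.

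The changes of sorafenib without perifosine and with it rest on separate arrays. Across the 41 members they correlated at a Pearson r of 0.70 and a Spearman rho of 0.65, against 0.26 and 0.20 across all genes. Genes are not independent replicates, and these values are a description. Of the members, 30 had the same sign in both (73.2%), 22 of them positive, against 56.8% of all genes. With perifosine IFIT3, ISG20 and MX2 stood highest and SAMD9 lowest. Without it OAS3 stood highest, followed by IFIT3 and MX2, and BST2 and SAMD9 stood lowest.

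**Figure D4:**
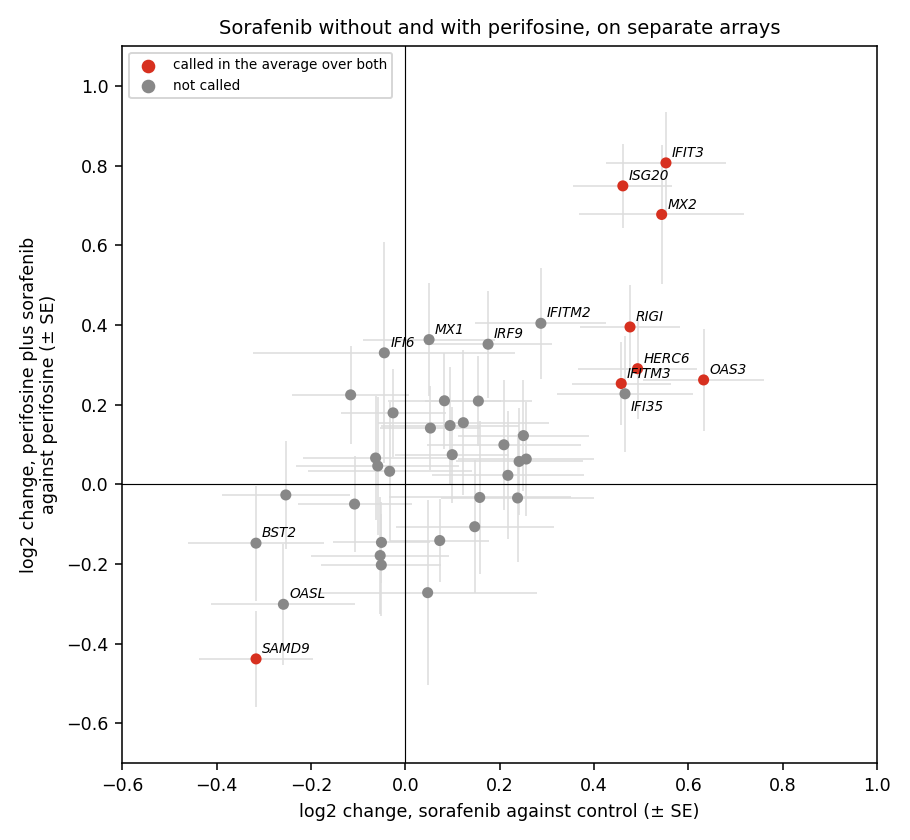
Log2 change of each member with sorafenib in cells without perifosine (horizontal axis) and with it (vertical axis), with standard errors; red points are the 8 members called in the average of both. IFIT3, ISG20 and MX2 stand at the upper right and SAMD9 at the lower left, while most members lie near the origin.

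On single arrays the module as a whole shifted little. The median deviation of the 41 members from the control mean was 0.12, 0.16 and 0.13 with perifosine plus sorafenib, 0.09, 0.16 and 0.13 with sorafenib, 0.07, 0.00 and -0.03 with perifosine, and -0.01, 0.01 and -0.01 in the control. The medians of the 6 arrays with sorafenib were higher than those of the 6 without, although perifosine A, at 0.07, lay close to sorafenib A, at 0.09. On each of the 3 arrays of the combination 29 members lay above the control mean. On sorafenib arrays 29, 29 and 23 did, on perifosine arrays 29, 21 and 18, and on control arrays 20, 23 and 20, so sorafenib C and perifosine A crossed the order of the groups by this count.

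**Figure D5:**
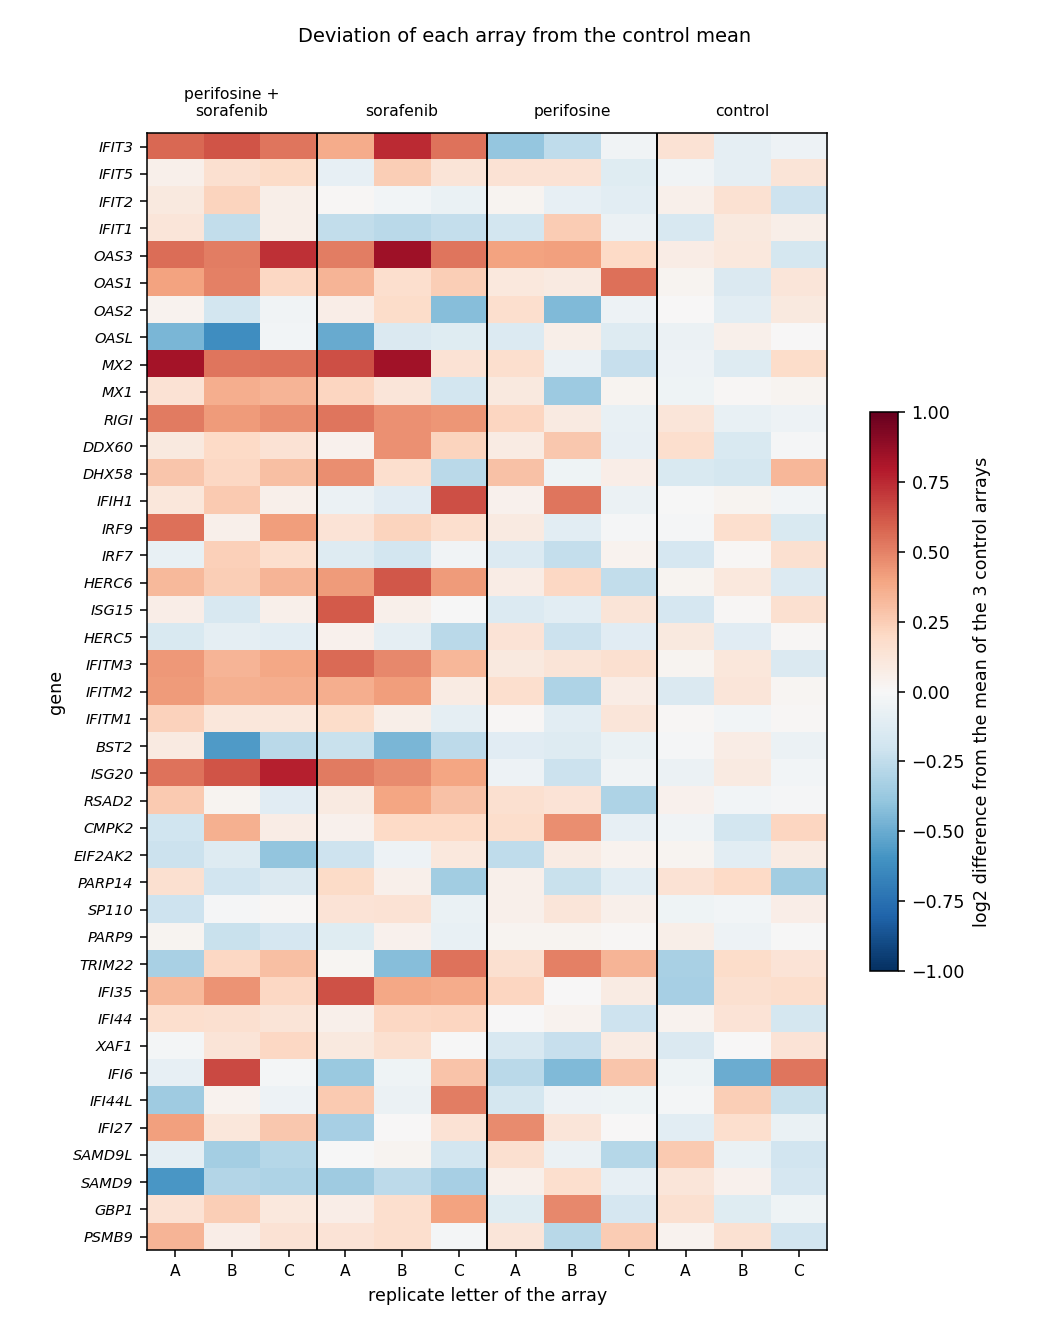
Difference of each array from the mean of the 3 control arrays, on the log2 scale, for the 41 members by role (rows) and 12 arrays (columns, lettered A to C within each group). The rows of IFIT3, OAS3, RIGI, HERC6, IFITM3 and ISG20 are red on all 6 arrays with sorafenib and SAMD9 is blue, while most other rows are pale or mixed.

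The pathway that leads to these genes was read with lists of its parts. Of 21 interferon genes 8 passed the filter on dim probes, and 0 of them were called with sorafenib. Only 2 of these 8 were above background on all 12 arrays. IFNB1 and IFNG, the interferons beta and gamma, were among the 13 too dim to test. All 6 receptor genes were tested and 0 were called, with changes from 0.09 to 0.18. IFNAR1 had a change of 0.13 ± 0.13, IFNAR2 of 0.12 ± 0.08, IFNGR1 of 0.18 ± 0.07 and IFNGR2 of 0.09 ± 0.08. Of 9 JAK-STAT genes 7 were tested and 0 called, with 0.25 ± 0.11 for JAK2 (limma adjusted p = 0.26), -0.03 ± 0.09 for JAK1 and 0.17 ± 0.12 for TYK2. Of 6 further IRF genes and 8 negative regulators tested 0 were called, SOCS1, the JAK inhibitor, having a change of 0.09 ± 0.13 and IRF1 one of 0.13 ± 0.21. None of these parts was called in sorafenib, perifosine or both against the control, and 10 housekeeping genes had 0 calls and a median averaged change of -0.0001.

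Outside the module, some other targets were called with sorafenib in the averaged comparison, which called 3.63% of all genes. Of 20 targets that respond most to interferon gamma, 1 rose and 2 fell (15% called). CXCL10, a chemokine that draws T cells, had a log2 signal of 10.05, 9.70 and 9.96 with perifosine plus sorafenib, 9.91, 10.02 and 9.67 with sorafenib, 10.62, 10.80 and 10.84 with perifosine, and 10.53, 10.84 and 10.75 in the control. All arrays with sorafenib lay below all without, and the averaged change was -0.85 ± 0.10 (SE; limma adjusted p = 0.00035). CXCL10 was also called in sorafenib against control (-0.84), perifosine plus sorafenib against control (-0.81) and perifosine plus sorafenib against perifosine (-0.85), with adjusted p from 0.012 to 0.014. These single comparisons lost the call of CXCL10 without control B or control C, without perifosine C (against perifosine), or without array B or C of the combination (changes -0.88 to -0.70, adjusted p 0.052 to 0.080), while the averaged call held in all 12 fits with 1 array left out. CXCL10 thus fell while IFIT3 and ISG20 rose on the same arrays.

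CD274, the checkpoint ligand PD-L1, fell as well. Its log2 signal was 10.29, 10.37 and 10.26 with perifosine plus sorafenib, 10.47, 10.32 and 10.45 with sorafenib, 10.80, 10.75 and 10.81 with perifosine, and 10.83, 10.70 and 10.48 in the control, with an averaged change of -0.36 ± 0.08 (SE; limma adjusted p = 0.020). No array with sorafenib reached the lowest control array, the closest pair being 10.47 with sorafenib and 10.48 in the control. With 1 array left out the call of CD274 ended in 6 of 12 fits, those without control A, control B, perifosine A, sorafenib B, or array A or C of the combination (changes -0.36 to -0.33, adjusted p 0.050 to 0.060). WARS1, the tryptophanyl-tRNA synthetase that interferon gamma induces and that also belongs to the amino acid response, rose by 0.39 ± 0.09 (adjusted p = 0.030). Of 41 further interferon-stimulated genes 1 rose, CASP1, the inflammasome protease, by 0.32 ± 0.07 (adjusted p = 0.018), and 0 fell. This made 2.44% called, no more than the 3.63% of all genes. Of these 41, 25 had a change above 0, and the median was 0.04. Of 13 genes of nucleic acid sensing 1 rose, IKBKE, a kinase that activates interferon regulatory factors, by 0.39 ± 0.09 (adjusted p = 0.032), and 0 fell (7.69% called). The call of CASP1 ended without sorafenib A (change 0.31, adjusted p = 0.054). Those of WARS1 and IKBKE ended in 7 and 10 of 12 such fits (adjusted p 0.053 to 0.075 and 0.057 to 0.079); WARS1 kept its call without control A, perifosine B, perifosine C, sorafenib C or array A of the combination, and IKBKE without perifosine B or array B of the combination.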

How the data were processed

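Total RNA of HDLM-2 cells was labelled with biotin and hybridised to Illumina arrays, per the labels' protocols. The authors deposited a linear intensity per probe and array, for 48803 probes on each of 12 arrays. The submitters' processing notes name BeadStudio and give no version. From the values, the deposited intensities had been quantile-normalised, with a lowest value of 109.7 on every array, and no background had been subtracted to 0. A second deposited table has 24 columns whose names match no sample label, so it was not used here.

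The intensities were background-corrected with normexp without control probes (offset 16), quantile-normalised and taken to log2. Probes were kept where they exceeded the upper 5% point of the dim signal (224.2 to 225 on the deposited scale) on at least 3 of 12 arrays, a rule set after the data were seen. This left 25388 probes. Of all probes 28098 had 1 gene symbol in the platform annotation, 13 several, and 20692 were not listed; 28059 matched a RefSeq gene. The passing probe with the highest mean stood for each of 13650 genes, and levels of different probes were not compared. Between 21965 and 22163 probes were above background per array, and the number of arrays limits the precision.

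The 12 arrays were fitted together in limma 3.58.1 (R 4.3.3), each group having its own mean. Total degrees of freedom were 13.1, and the median residual SD was 0.18. P-values were adjusted by Benjamini-Hochberg within each of 7 contrasts. Groups and letters come from the sample titles. The members and lists, and the arrays left out as a pair, were chosen with earlier results of these data known. Values on every array were given for members called in any contrast, for the 2 highest and 2 lowest changes against the control in each drug group, and for the IFIT and OAS families. Genes of other lists were named if called, or if they were receptors, JAK kinases, IRF1 or SOCS1.

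The letters did not pair the arrays: 2 of 18 same-letter pairs had a correlation of deviations over 0.1. Alternatives were no background correction, an offset of 50, other filters, other probe rules, trended and robust eBayes, array weights, the letter as a block, each group pair alone and arrays left out.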

Additional observations from a re-analysis of the deposited data

How the results depend on the processing

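No change of a gene called in the report reversed under the alternatives tried, and genes that were not called were not followed through them. With every probe tested, each gene was followed only through the probe that stood for it. Another probe could differ in sign, as the third of IFIT3 did in perifosine plus sorafenib against perifosine (change -0.14). In the averaged sorafenib comparison, IFIT3, ISG20, MX2 and RIGI were called under every alternative. With 1 array left out, 5 to 8 members were called (12.2% to 19.5%), against 1.98% to 3.67% of all genes. Otherwise 6 to 10 were called (14.6% to 25%), against 1.31% to 7.08% of all genes. Over all alternatives 247 to 943 genes were called. All genes called numbered 815 without background correction, 247 without a filter on dim probes, 723 with probes above background on all 12 arrays, 758 with trended robust eBayes and 943 with array weights. OAS3 lost its call with the mean of its probes and without array C of the combination (adjusted p = 0.051). Without a filter on dim probes HERC6, SAMD9, CD274, WARS1 and IKBKE lost their calls, with every probe tested HERC6 and IKBKE did, and without perifosine B and sorafenib C together SAMD9 did, which still gave 8 members. With the replicate letter as a block the averaged comparison called 8 members and 345 genes, and WARS1 and IKBKE lost their calls (adjusted p = 0.053 and 0.057); only 3 of 12 arrays correlated best with an array of their own letter.

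For sorafenib against control the members called numbered 6 without background correction and with trended robust eBayes, 4 with an offset of 50, 5 with probes above background on all 12 arrays and with array weights, and 0 without a filter, with the mean of probes, with every probe tested, with the replicate block, without perifosine B and sorafenib C, and with the 2 groups alone. Over leave-one-out fits they numbered 0 to 2. The main fit called 1 of 41 members (2.44%), against 112 of all genes (0.821%). Settings differ in how many genes or probes they test, so these counts are not comparable across settings. All genes called numbered 252 without background correction, 242 with trended robust eBayes, 169 with an offset of 50, 200 and 231 with the all-array filter and array weights, 40 without a filter, 49 with the block, 72 without that pair of arrays and 23 with the groups alone. For perifosine plus sorafenib against control, 4 members were called without background correction, with the all-array filter, with trended robust eBayes and with array weights, 3 with an offset of 50, 0 with the groups alone, and 0 to 1 leaving out arrays; all genes ranged from 34 to 208. Against perifosine, 4 were called with trended robust eBayes, 1 with the mean of probes, 0 with the groups alone, and 1 to 3 leaving out arrays; all genes ranged from 21 to 289. Fewer samples or fewer probes tested are part of some of these settings; otherwise the cause was not tested.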
